A study of Mus musculus with 7 samples.

Results

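Integrin and laminin subunits are the 37 genes whose symbols on the array name an integrin alpha or beta chain or a laminin alpha, beta or gamma chain. There were 26 integrin and 11 laminin genes, out of 31131 gene names on the array, and the rule used the symbol and no measured value. RNA was measured in quadriceps muscle of 3-month-old C57BL/6 mice on single-dye Agilent arrays, with 1 mouse per array and no pooling. The groups were 4 WT mice and 3 AR113Q mice, knock-in animals with an expanded CAG repeat that serve as a model of spinal and bulbar muscular atrophy (SBMA). The study's results text describes knock-in controls with a short CAG repeat, whereas its legends and the labels name them WT, so which of these the controls were is not settled here. The study states that its mice were male, a detail that the labels do not carry, and the arrays were made at an age before motor dysfunction is seen in this line.

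Integrins are receptors made of 1 alpha and 1 beta chain that span the plasma membrane and tie the extracellular matrix to the cytoskeleton. Laminins are trimers of 1 alpha, 1 beta and 1 gamma chain and form a sheet in every basement membrane, including the one around each muscle fiber. In adult muscle the alpha2 laminin trimer outside the fiber is held by the integrin alpha7 beta1 and by dystroglycan, and inherited loss of the laminin alpha2 chain or of integrin alpha7 causes congenital muscle disease. Other subunits belong to blood vessels, nerve, connective tissue and blood cells, all of which are present in whole muscle. In whole tissue, fewer cells of a type and less RNA per cell cannot be told apart.

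The members called lower in AR113Q include receptors and matrix chains that work in different cells, and the promoters of 5 of them are shown because these members moved in the same direction and RefSeq lists 1 start site for each. Each line gives the 250 bases before the start site on GRCm38.p6, 5′ to 3′ on the strand of the gene. Capitals mark GGGCGG or its reverse complement CCGCCC, the GC box, to which the transcription factor SP1 and its relatives bind.
Itga4 (chr2:79255176-79255425, + strand): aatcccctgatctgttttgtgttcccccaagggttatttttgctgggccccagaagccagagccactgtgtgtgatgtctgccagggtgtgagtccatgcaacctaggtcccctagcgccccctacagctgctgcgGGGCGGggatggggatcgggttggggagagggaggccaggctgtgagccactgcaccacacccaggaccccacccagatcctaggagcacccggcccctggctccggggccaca
Itgb7 (chr15:102231936-102232185, - strand): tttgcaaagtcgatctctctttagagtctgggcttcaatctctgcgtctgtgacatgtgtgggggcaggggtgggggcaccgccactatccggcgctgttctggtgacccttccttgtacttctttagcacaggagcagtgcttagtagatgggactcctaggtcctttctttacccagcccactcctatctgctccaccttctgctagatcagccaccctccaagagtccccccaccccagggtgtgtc
Itga11 (chr9:62677605-62677854, + strand): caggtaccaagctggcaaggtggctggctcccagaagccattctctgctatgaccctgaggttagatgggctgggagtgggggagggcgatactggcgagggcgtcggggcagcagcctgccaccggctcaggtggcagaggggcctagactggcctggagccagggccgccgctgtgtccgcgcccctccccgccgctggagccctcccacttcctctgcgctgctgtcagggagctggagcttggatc
Itgax (chr7:128129300-128129549, + strand): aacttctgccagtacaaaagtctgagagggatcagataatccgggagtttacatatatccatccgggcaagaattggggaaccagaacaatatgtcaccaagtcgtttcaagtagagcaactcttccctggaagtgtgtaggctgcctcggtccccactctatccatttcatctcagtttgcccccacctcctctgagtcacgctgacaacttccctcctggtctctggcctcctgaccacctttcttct
Lamb1 (chr12:31265043-31265292, + strand): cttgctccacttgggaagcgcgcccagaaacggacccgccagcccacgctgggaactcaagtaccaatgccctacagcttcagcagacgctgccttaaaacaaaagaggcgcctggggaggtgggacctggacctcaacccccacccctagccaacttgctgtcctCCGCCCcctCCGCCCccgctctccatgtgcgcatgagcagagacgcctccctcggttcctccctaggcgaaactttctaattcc
Itga4 held 1 GC box and Lamb1 held 2, and none was found in Itga11, Itgax or Itgb7. The RefSeq table matched 23 of the 37 members with 26 windows, among them 6 of the 8 members called lower. Itgb4 and Lama4 had no entry. The GC box was found in 9 of the 26 member windows, from 8 genes, and in 32.7% of all 32841 promoter windows of the same length. The TATA box letters TATAAA or TTTATA were in none of the member windows and in 12.4% of all. Both motifs were searched on both strands, and they share no letters that could overlap. A match is a description of the sequence, and no match says that these letters are not in this window.

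Values are log2 signals after quantile normalization of the background-subtracted spot intensities, and a fold change is AR113Q minus WT on that log2 scale. A gene entered the test when 3 or more of the 7 arrays had its probe well above background, and it was called if the Benjamini-Hochberg adjusted p of limma over 16577 genes was at most 0.05 and the absolute log2 fold change at least 1. Between 18785 and 22013 probes per array were well above background (47.6% to 55.8%), and no spot was saturated. Of the 37 members, 31 passed the filter (22 integrins and 9 laminins), and 27 of these were above background on all 7 arrays. Itga2, Itgad, Itgae, Itgb8, Lama1 and Lamb3 did not pass, with 0 of 4 WT arrays above background for each and 1 of 3 AR113Q arrays for Itga2 and for Lamb3. They encode a collagen receptor chain, a pair of leukocyte chains, a beta chain that activates latent TGF-beta, a laminin chain of early embryos and a laminin chain of epithelial attachment.

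Of the 31 members tested, 8 were called lower in AR113Q and 0 higher, by limma with adjustment over all genes. Among all genes tested 13.1% were called lower and 11.2% higher, 24.3% in either direction. The 8 were the integrin genes Itgb6, Itga4, Itga11, Itgax, Itgb7 and Itgb4 and the laminin genes Lamb1 and Lama4. Past the adjusted p alone there were 15 members, against 43.6% of all genes. By direction these were 13 lower (22.6% of all genes) and 2 higher (21% of all genes). The groups did not overlap for 14 members, against 49.3% of all genes, and of these 13 were lower (25.1% of all genes) and 1 higher (24.2% of all genes). The share of members called lower was 25.8%. At an unadjusted p below 0.05, 14 members were lower (26.6% of all genes) and 3 higher (24.9% of all genes), the latter being Itga3, Itga5 and Itga10. The median log2 fold change was -0.55 over the 31 members, -0.50 over the integrins and -0.56 over the laminins, and -0.01 over all genes. Over the members it was -0.21 after normexp correction and -0.19 in the authors' values. The sign was negative for 20 members and positive for 11.

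**Figure D1:**
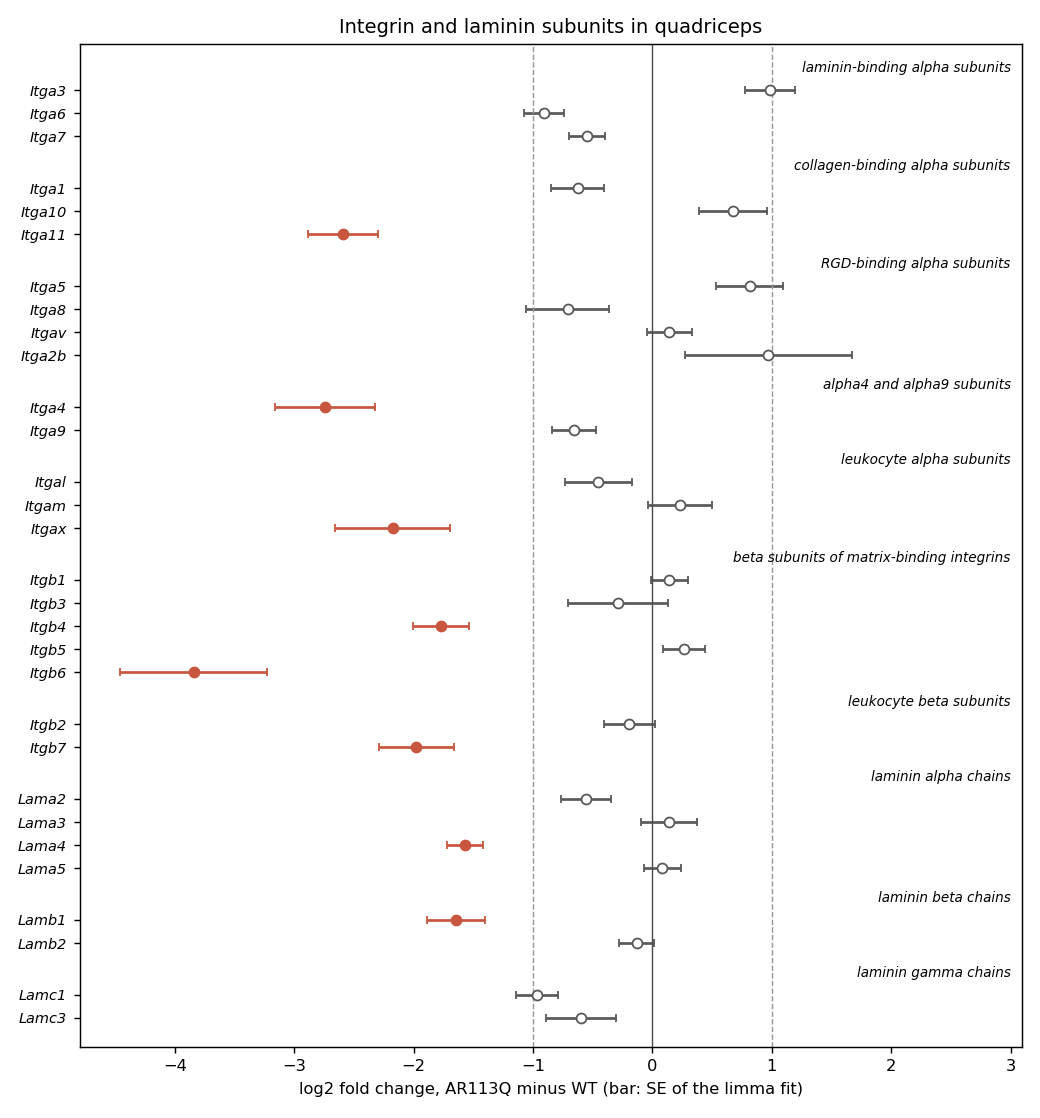
Log2 fold change, AR113Q minus WT, of 30 of the 31 integrin and laminin subunits tested, grouped by role; points are limma estimates from 4 WT and 3 AR113Q arrays and bars their standard errors. Filled points mark the 8 subunits called lower, dashed lines the fold threshold of 1 in each direction, and no subunit was called higher.

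Among the alpha subunits outside the leukocyte receptors, the collagen receptor chain Itga11 and the integrin chain Itga4 were called lower. Itga11 pairs with beta1 on fibroblasts and binds fibrillar collagen. Its log2 signal was 10.85, 9.94, 10.31 and 10.12 on the WT arrays and 7.40, 8.30 and 7.43 on the AR113Q arrays. Every AR113Q array lay below every WT array. The log2 fold change was -2.59 (SE 0.30, limma adjusted p = 0.000493), a 6.04-fold lower signal. Of the other collagen-binding chains, Itga1, found on vessel and connective tissue cells, was at -0.63 (adjusted p = 0.0494), past the adjusted p but not the fold threshold, with overlap between the groups. Its second probe gave -0.65. Itga10, a chondrocyte chain, was at 0.67 (adjusted p = 0.0867), and its second probe, which overlaps the first on the genome, at 0.74 (adjusted p = 0.0470 over all probes).

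Itga4 pairs with beta1 or beta7 and binds VCAM1 and fibronectin. Its log2 signal was 9.01, 8.79, 8.59 and 9.0 in WT and 5.0, 7.03 and 6.28 in AR113Q. The WT arrays lay close together, and the AR113Q arrays were spread more widely, all below them. The log2 fold change was -2.75 (SE 0.42, limma adjusted p = 0.00153), 6.71-fold lower. It was -1.55 after normexp correction and -1.18 in the authors' normalized values, both still called. Its other probe was not above background on any array. Itga9, the related chain that binds tenascin and VCAM1, was at -0.66 (adjusted p = 0.0226) and did not pass the fold threshold, with no overlap between the groups. Vcam1, the endothelial ligand of both, was also called lower at -1.04 (adjusted p = 0.00878), as was fibronectin, Fn1, at -1.96 (adjusted p = 0.0178).

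Among the RGD-binding alpha chains, which recognize a short tripeptide in fibronectin, vitronectin and related ligands, 0 of 4 tested were called, against 24.3% of all genes. The fibronectin receptor chain Itga5 was at 0.81 (adjusted p = 0.0449), below the fold threshold and with overlap. After normexp correction it was at 0.30 (adjusted p = 0.125) and in the authors' values at 0.19 (adjusted p = 0.163). The platelet chain Itga2b was at 0.97 (adjusted p = 0.292) and above background on 1 WT and 2 AR113Q arrays. It was at 0.43 without WT replicate 3, 1.57 without WT replicate 4, 0.08 after normexp correction and 0.05 with the mean spot intensity. The vitronectin receptor chain Itgav was at 0.14 (adjusted p = 0.575) and by its second probe at 0.58 (adjusted p = 0.0752). Itga8, a chain of smooth muscle and mesenchymal cells, was at -0.71 (adjusted p = 0.134). Without AR113Q replicate 3 it was at -1.11 (limma adjusted p = 0.0157) and called lower, and without AR113Q replicate 2 at -0.32.

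Of the beta subunits of matrix-binding integrins, Itgb6 and Itgb4 were called lower. The beta6 chain pairs only with alphav, is known from epithelia and activates latent TGF-beta. Its log2 signal was 9.31, 9.56, 9.74 and 8.03 on the WT arrays and 3.94, 5.52 and 6.47 on the AR113Q arrays. All AR113Q arrays were below all WT arrays, and on 1 of them the probe was not well above background. The log2 fold change was -3.85 (SE 0.61, limma adjusted p = 0.00190). The array annotation gives this probe no position on the genome. A second probe, at chromosome 2, 60492788 to 60492847 on mm9, was above background on 3 WT and 0 AR113Q arrays, so that it entered the test through WT alone. Its groups overlapped, with 5.0, 5.09, 5.47 and 2.41 in WT and 2.98, 2.02 and 2.32 in AR113Q. The difference by the first probe was smaller in values that keep more of the background, with -2.17 after normexp correction and -1.71 in the authors' normalized values, both still called.

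Itgb4, the beta chain that pairs with alpha6 in hemidesmosomes and on Schwann cells, had a log2 signal of 7.75, 8.23, 7.92 and 7.44 in WT and 5.82, 5.93 and 6.44 in AR113Q. The groups were separate, with a log2 fold change of -1.77 (SE 0.24, limma adjusted p = 0.000893). After normexp correction it was -0.89 and in the authors' normalized values -0.65, past the adjusted p but below the fold threshold. The broadly expressed Itgb1, the partner of most alpha chains, had 9.72, 9.48, 9.55 and 9.82 in WT and 9.84, 9.63 and 9.87 in AR113Q. The groups overlapped, and the log2 fold change was 0.14 (adjusted p = 0.494), with 0.11 for its second probe. Itgb5, which pairs with alphav, was at 0.26 (adjusted p = 0.261), and Itgb3, the partner of Itga2b and alphav, at -0.29 (adjusted p = 0.608).

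**Figure D2:**
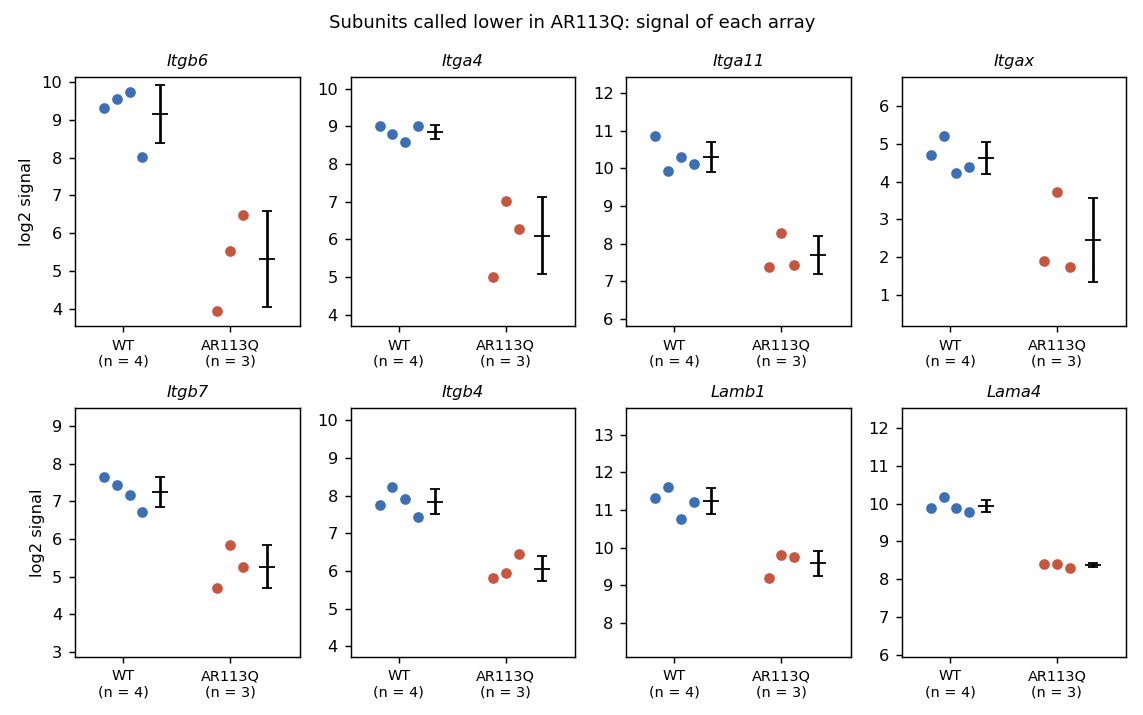
Log2 signal of the 8 subunits called lower in AR113Q; each point is 1 array (blue WT, red AR113Q), and the black bars show the mean and SD. All panels span the same number of log2 units, and in each of them every AR113Q array lies below every WT array.

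Of the leukocyte subunits, 2 of 5 tested were called lower, against 13.1% of all genes. Itgb7, the lymphocyte chain that pairs with alpha4 or alphaE, had a log2 signal of 7.65, 7.44, 7.18 and 6.72 in WT and 4.71, 5.84 and 5.26 in AR113Q. The groups did not overlap, with a log2 fold change of -1.98 (SE 0.31, limma adjusted p = 0.00176). It was -0.92 after normexp correction and -0.63 in the authors' values, in both below the fold threshold. Itgax, the CD11c chain of dendritic cells and some macrophages, had 4.69, 5.20, 4.24 and 4.38 in WT and 1.89, 3.73 and 1.74 in AR113Q. Its signal was near the detection limit, above background on 2 of 4 WT and 1 of 3 AR113Q arrays. The log2 fold change was -2.18 (SE 0.48, limma adjusted p = 0.00792), but -0.26 (adjusted p = 0.0850) after normexp correction, so the size of this difference depends on how the background is handled. The remaining chains of the leukocyte receptors did not pass the test. Itgb2, the shared beta chain, was at -0.19 (adjusted p = 0.492), and its partners Itgam (CD11b of myeloid cells) and Itgal (CD11a) were at 0.23 (adjusted p = 0.508) and -0.45 (adjusted p = 0.228). A further Itgam probe was at -0.59 (adjusted p = 0.175), opposite in sign to its other probes.

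The laminin receptors of the muscle fiber and its vessels differed in direction. Itga7, the main laminin receptor chain of adult muscle, had a log2 signal of 12.58, 12.54, 12.58 and 12.43 in WT and 11.78, 12.00 and 12.17 in AR113Q. The groups did not overlap, and the log2 fold change was -0.55 (SE 0.15, limma adjusted p = 0.0200), past the adjusted p but below the fold threshold. Itga6, the laminin receptor chain of endothelium, satellite cells and epithelia, was at -0.91 (SE 0.17, adjusted p = 0.00332), also without overlap and below the fold threshold. Itga3, another laminin receptor chain, went the other way. Its log2 signal was 5.40, 5.04, 4.99 and 5.62 in WT and 6.51, 6.16 and 6.05 in AR113Q, and every AR113Q array was above every WT array. The log2 fold change was 0.98 (SE 0.21, adjusted p = 0.00679), just under the fold threshold, and it was 0.25 in the authors' values.

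Of the laminin chains, the pair Lama4 and Lamb1 was called lower. The alpha4 chain is the laminin of capillaries and other vessels and of the Schwann cell surface. Lama4 had a log2 signal of 9.89, 10.18, 9.89 and 9.79 in WT and 8.40, 8.41 and 8.30 in AR113Q. The 3 AR113Q arrays lay within a narrow band below all WT arrays, and the log2 fold change was -1.57 (SE 0.15, limma adjusted p = 0.000277), 2.97-fold lower. Lamb1, the beta chain of vascular laminins and of the main trimer along the muscle fiber, had 11.32, 11.61, 10.77 and 11.21 in WT and 9.20, 9.80 and 9.76 in AR113Q. The groups were separate, and the log2 fold change was -1.64 (SE 0.24, adjusted p = 0.00135), 3.13-fold lower. Both kept their call after normexp correction and in the authors' values.

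The other chains found around the muscle fiber showed smaller differences. Lama2, the alpha chain of the fiber trimers, had a log2 signal of 11.98, 12.23, 11.82 and 12.08 in WT and 11.03, 11.62 and 11.75 in AR113Q. The groups did not overlap, yet the log2 fold change of -0.56 (SE 0.21, limma adjusted p = 0.0608) did not pass the threshold, and the second probe gave -0.71 (adjusted p = 0.0748). Without AR113Q replicate 1 the value was -0.34, and with slide as a fixed effect -1.19. Lamb2, the beta chain of the neuromuscular junction, had 11.17, 10.86, 11.09 and 10.97 in WT and 10.83, 10.87 and 10.96 in AR113Q. These overlapped, and the log2 fold change was -0.13 (adjusted p = 0.488). Lamc1, the gamma chain of nearly all of these laminins, had 12.50, 12.69, 12.39 and 12.55 in WT and 11.25, 11.79 and 11.65 in AR113Q. The groups did not overlap, and the value of -0.97 (SE 0.18, adjusted p = 0.00344) was just short of the fold threshold. The remaining chains described here did not pass the test. Lama5, of mature vessels and epithelia, was at 0.08 (adjusted p = 0.694), and Lama3, an epithelial attachment chain, at 0.14 (adjusted p = 0.656). Lamc3 was at -0.60 (adjusted p = 0.132), with -0.39 without AR113Q replicate 1, -0.16 after normexp correction, -0.10 in the authors' values and -1.28 with slide as a fixed effect.

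**Figure D3:**
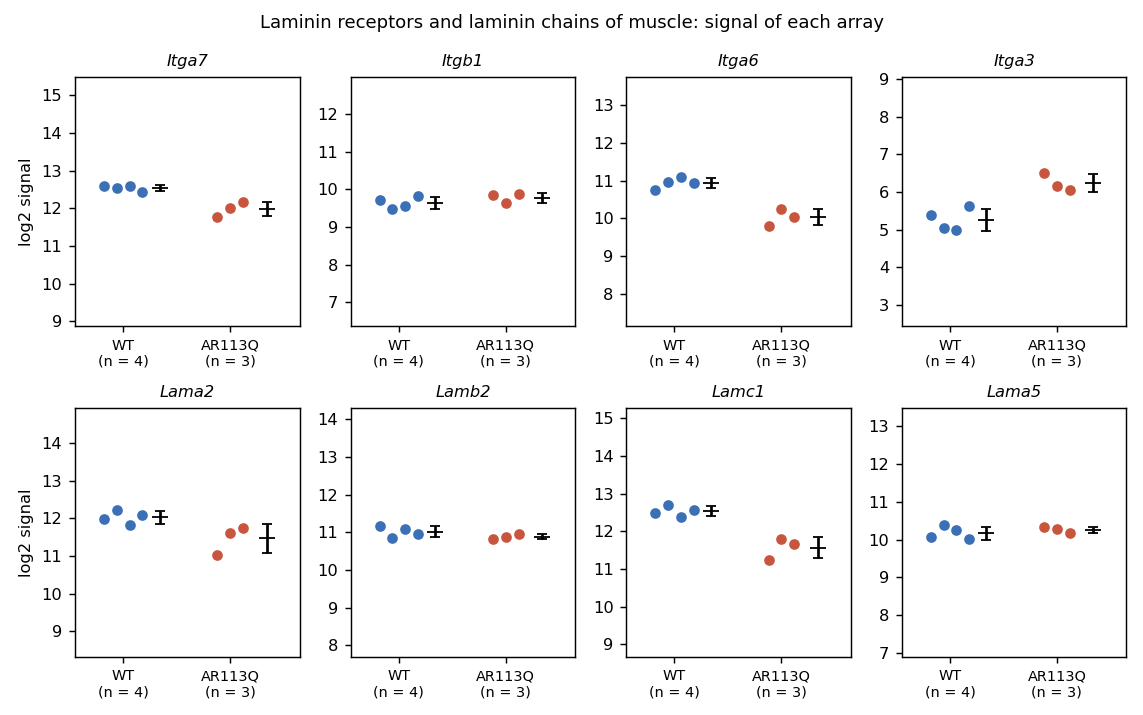
Log2 signal of laminin receptor and laminin chain genes; each point is 1 array (blue WT, red AR113Q), with the mean and SD in black, and all panels span the same number of log2 units. AR113Q arrays lie below WT for Itga7, Itga6, Lama2 and Lamc1 and above WT for Itga3, and the groups overlap for Itgb1, Lamb2 and Lama5.

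Related subunits were also set against each other within each array, in 4 pairs picked after the values were known. The difference of Lama4 and Lama2 (the first minus the second) was shifted by -1.01 in AR113Q relative to WT on the log2 scale, and that of Lamb1 and Lamb2 by -1.51. For Itga6 against Itga7 it was -0.36, and for Itga3 against Itga7 1.53. The exact permutation test over the 35 arrangements of the arrays took 2 times the smaller one-sided p as the two-sided p. Its smallest value is then 0.0571, which 3 of the pairs reached (adjusted over the 4 pairs to 0.0762), and the pair Itga6 and Itga7 gave 0.114. Since the pairs were chosen on these same values, the p-values largely restate that choice and are not evidence of a difference.

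**Figure D4:**
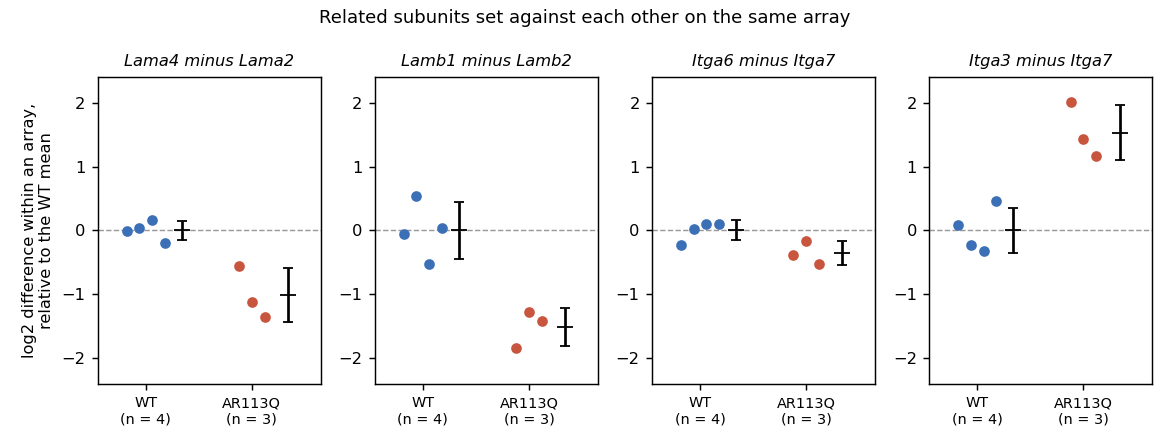
Log2 difference between 2 subunits on the same array, relative to the WT mean of that difference; each point is 1 array (blue WT, red AR113Q), with mean and SD in black. AR113Q arrays lie below WT for Lama4 minus Lama2 and Lamb1 minus Lamb2 and above WT for Itga3 minus Itga7, while 1 AR113Q array lies among the WT arrays for Itga6 minus Itga7.

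Other genes of the same system were taken from 4 lists. Of 20 other basement membrane genes tested, 10 were called lower and 0 higher (against 13.1% and 11.2% of all genes), with a median log2 fold change of -0.999. Normexp correction and the authors' values each gave 4 called lower, and calls among all genes fell in these settings too. Among the genes called lower were the matrix peroxidase Pxdn at -1.78 (adjusted p = 0.000480), the type IV collagen chain Col4a5 at -1.49 (adjusted p = 0.0133) and nidogen-2, Nid2, which links laminin to collagen, at -1.35 (adjusted p = 0.00192). Of the other type IV chains, Col4a6 was called lower, and Col4a3 and Col4a4 were lower but short of the fold threshold. The brighter chains Col4a1 and Col4a2 were at 0.22 and 0.11 and not called. The vessel and fiber collagen Col15a1 was above background on 4 WT and 0 AR113Q arrays and was at least 2.23-fold lower. A bound of this kind sets the brighter group against the detection limit of the dimmer arrays. Col15a1 entered the test through WT alone, so its adjusted p is not given, though it is counted among the 10 called lower. Of 19 integrin ligands other than laminins and collagens, 7 were called lower, against 13.1% of all genes, and 2 higher, near the 11.2% of all genes, with a median of -0.58. The microfibril protein Fbn1 was at -2.33 (adjusted p = 0.00163) and Postn, above background on 4 WT and 1 AR113Q arrays, at -1.83 (adjusted p = 0.0143), whereas Thbs1 was at 1.11 (adjusted p = 0.0467). Icam1, the ligand of the leukocyte beta2 integrins, was above background on 0 WT and 3 AR113Q arrays and at least 2.28-fold higher. It entered the test through AR113Q alone, so its adjusted p is not given, though it is counted among the 2 called higher. Icam2, another ligand of the leukocyte beta2 integrins, was at -1.50 (adjusted p = 0.000636).

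Of 32 adaptors and other cytoplasmic partners of integrins, 5 were called lower and 4 higher, with a median of -0.24, and these 9 of 32 are near the 24.3% of all genes called in either direction. Focal adhesion kinase, Ptk2, was at -2.07 (adjusted p = 0.000613) and Tgfb1i1 at -1.68 (adjusted p = 0.000906). Itgb1bp2 (melusin) was at -1.55 (adjusted p = 0.0498), at the edge of the threshold and with overlap between the groups. The filamin Flna was at -1.11 (adjusted p = 0.00222). On the other side, Parvg was above background on 0 WT and 3 AR113Q arrays and at least 4.25-fold higher. It entered the test through AR113Q alone, so its adjusted p is not given, though it is counted among the 4 called higher. Tns2 was at 1.91 (adjusted p = 0.000402), Filip1 at 1.16 (adjusted p = 0.00355) and paxillin, Pxn, at 1.15 (adjusted p = 0.00336). Of 17 other laminin receptors and the enzymes that modify them, 4 were called lower and 1 higher, with a median of -0.15, and these 5 of 17 are near the 24.3% of all genes. Sdc2 was at -1.50 (adjusted p = 0.000421), the sarcoglycan Sgcd at -1.43 (adjusted p = 0.00573), Bcam at -1.39 (adjusted p = 0.00235) and Sdc1 at -1.19 (adjusted p = 0.00244), and Sdc4 was at 1.92 (adjusted p = 0.00396). Dystroglycan, Dag1, was at 0.10 (adjusted p = 0.741).

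Markers of other cells moved beside these genes, and their part in the results was not tested. These counts are to be read against 13.1% of all genes called lower and 11.2% called higher. Of 10 fibroblast genes 6 were called lower and 0 higher, with Col3a1 at -4.62 and decorin, Dcn, on the other side of 0 at 0.41 (adjusted p = 0.0692), and their summed signal was 123370 to 153020 in WT and 82153 to 118080 in AR113Q. Of 11 macrophage genes 4 were lower and 1 higher (summed signal 9177 to 16737 and 7212 to 10359), with Cd163 at 1.18 and Cx3cr1 at least 2.12-fold lower (above background on 4 WT and 0 AR113Q arrays). Cx3cr1 thus entered the test through WT alone. Of 6 lymphocyte genes 1 was lower (713 to 880 and 456 to 803), and of 4 platelet genes 2 were lower (3029 to 5466 and 504 to 1033), with Pf4 at -2.75. Of 9 Schwann cell genes 4 were lower (1583 to 3814 and 1050 to 1333). Of 7 satellite cell genes 4 were lower and 1 higher (1805 to 2384 and 1169 to 1618), and of 8 adipocyte genes 5 were lower and 1 higher (61442 to 103670 and 41370 to 49596). Of 11 endothelial genes 1 was lower and 1 higher (17662 to 21029 and 16089 to 18653). Of 10 pericyte and smooth muscle genes 2 were lower (31557 to 35689 and 31944 to 35098). Neutrophil genes (0 of 6 called, 9037 to 17103 and 10282 to 14488) and erythrocyte genes (0 of 4 called, 53912 to 257070 and 55553 to 67970) overlapped between the groups. No gene of the 10 muscle fiber markers was called, and all 10 were above background on all 7 arrays, with Ckm at -0.80 (adjusted p = 0.0102), short of the fold threshold.

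The arrays came from 5 slides, all scanned on 1 day. The genotypes met on a single slide, which carried WT replicate 2 beside AR113Q replicate 1. Within this pair, which is also part of the full comparison, the log2 difference was -5.61 for Itgb6, -3.79 for Itga4, -3.32 for Itgax, -2.73 for Itgb7 and -2.54 for Itga11. It was -2.41 for both Itgb4 and Lamb1 and -1.79 for Lama4. When slide entered the limma fit as a fixed effect, only this pair carried the genotype difference and 0 of 31 members and 0 of all genes were called, with 12 members lower (19.8% of all genes) and 3 higher (17.6% of all genes) at an unadjusted p below 0.05. For the members called in the main comparison the differences were then those of the pair above. In this fit the spread within a group came only from WT replicate 3 and WT replicate 4, which shared a slide. The p-values of the fit thus hold no spread between AR113Q mice, and its counts do not decide whether the members differ. Leaving out each array in turn gave 8 to 10 members called lower and 0 to 2 called higher, while the calls among all genes went from 3467 (without AR113Q replicate 1) to 4331 (without AR113Q replicate 3). Lamc1 was called lower without WT replicate 3, AR113Q replicate 2 or AR113Q replicate 3, and Itga6 without AR113Q replicate 2. Itga3 was called higher without WT replicate 1, WT replicate 4, AR113Q replicate 2 or AR113Q replicate 3, Itga2b without WT replicate 4 and Itga5 without AR113Q replicate 3.

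**Figure D5:**
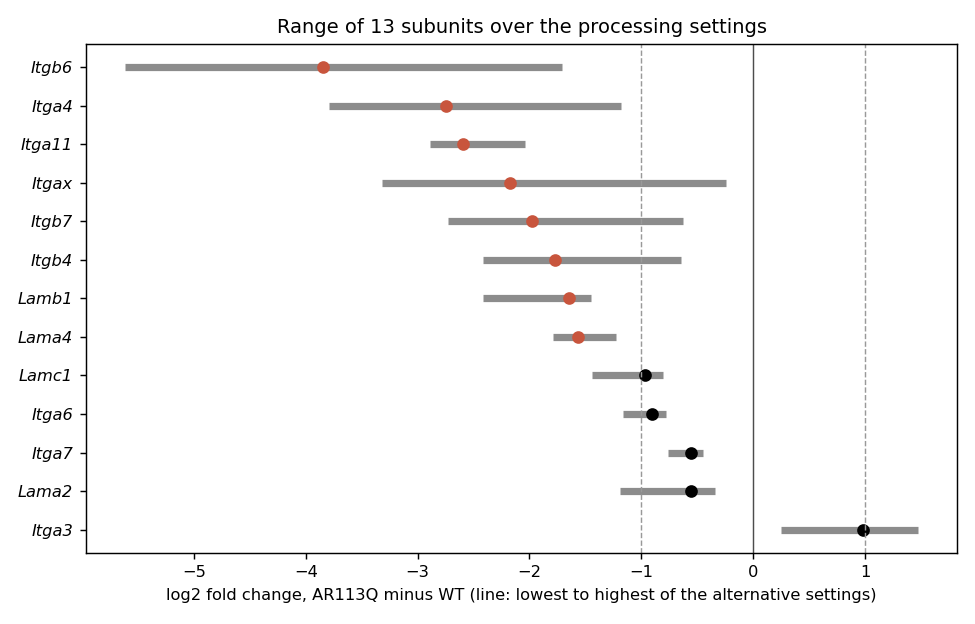
Log2 fold change of the 8 subunits called lower (red points) and of 5 others (black points), with grey lines from the lowest to the highest value over the alternative processing settings; dashed lines are the fold threshold of 1 in each direction. All 8 stay below 0, but Itgax, Itgb7 and Itgb4 reach values above -1 in some settings, whereas Itgb6, Itga4, Itga11, Lamb1 and Lama4 do not.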

How the data were processed

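RNA of quadriceps from 4 WT and 3 AR113Q mice was labeled with Cy3 and hybridized to 1 Agilent array per mouse. The authors extracted the spots with Agilent Feature Extraction 10.7.3.1, and the deposited scanner files hold a background-subtracted intensity per spot (with the mean spot intensity and local background) that is not normalized between arrays. The deposited table of log2 values (18592 probes, quantile normalized according to the methods) was used as an alternative.

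Control and outlier spots were left out, and log2 of the background-subtracted intensity was quantile normalized over the 43020 other spots per array. Replicate spots were averaged to 39429 probes. A probe was kept when 3 or more of 7 arrays were well above background (20991 probes), and the kept probe with the highest mean stood for its gene. The number of arrays limits the precision. The 37 members had 50 probes, 39 of them kept, and 7 genes had more than 1 kept probe. The scanner files named all member probes, and for 48 of the 50 the RefSeq accession gave the same symbol. The array annotation places probes on mm9, and 7 member probes have no position. Promoter windows are from RefSeq on GRCm38.p6.

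The test was limma's (version 3.58.1, R 4.3.3), and p-values of its moderated fit were adjusted by Benjamini-Hochberg across 16577 genes. The procedure was tested on simulated data. Nothing in the labels says that the mice came from separate litters, so p-values measure the spread between these arrays. Members are accounted for by name, except that 1 member in the counts is not reported here. The value of each array is given for members called and for Itga7, Itgb1, Lama2, Lamb2 and Lamc1, and Itga3 was added after its values were seen. Vcam1, Dag1 and the type IV collagen chains beside Col4a5 were also named outside the rule. Of each pathway list, up to 4 called genes in each direction could be named. Members and lists were chosen with earlier results of these data known. Replicate numbers were not taken to pair the samples in the main fit. Correlations of same-numbered arrays after removing group means were 0.04, -0.02 and 0.16. The highest with another WT array were 0.11, 0.095 and 0.12, and these few values do not settle whether the samples were paired. There were 0 unmatched columns of per-sample values. Alternatives tried were normexp correction (offset 50), scaling to the 75th percentile, the authors' values, no filter or a filter on all 7 arrays, the mean over probes, outlier spots kept, an intensity trend, slide as a random or fixed effect, replicate number as a block, each array left out, and the mean spot intensity.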

Additional observations from a re-analysis of the deposited data

How the results depend on the processing

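Over 19 alternative settings, 522 of 563 member values kept their direction and their side of the thresholds, 16 lost the call, 13 gained one and 12 changed sign. None of the members that changed sign was called. The 8 members called lower became 5 with normexp correction, 5 of 28 members in the authors' values, 5 with the mean spot intensity (chosen after seeing the data) and 0 with slide as a fixed effect, which also leaves 0 calls among all genes. With the filter on all 7 arrays 6 of 27 members were called lower, and Itgb6 and Itgax did not enter that test. Calls among all genes fell as well, from 4030 to 1751 with normexp, 1365 in the authors' values, 1904 with the mean spot intensity and 2969 with the filter on all 7 arrays. The 0 called higher became 2 (Itga3 and Itga2b) with the replicate block, in which WT replicate 4 has no partner and adds nothing to the difference, and the same 2 were called without WT replicate 4 and no block. The replicate block gave 8 called lower. When 1 array was left out 0 to 2 were called higher. The median of -0.55 was -0.21 with normexp, -0.19 in the authors' values, -0.29 without the filter on dim probes, -0.21 with the mean spot intensity and -0.64 to -0.32 when 1 array was left out. The cause was not tested.

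With scaling to the 75th percentile Itgav was at -0.011 and Lama3 at -0.093, and with the mean over probes Itgam was at -0.042. With slide as a fixed effect Itgam was at -0.41, Itgb3 at 0.67, Lama3 at -0.10 and Lama5 at -0.049. Itgb3 was at 0.077 with the replicate block. With 1 array left out, Lama3 ranged from -0.045 to 0.27 (negative without WT replicate 3), Itgb3 from -0.58 to 0.077 (positive without WT replicate 4), Itgb2 from -0.31 to 0.0091 (positive without AR113Q replicate 1) and Itgam from -0.053 to 0.48 (negative without AR113Q replicate 3).

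Of the other lists, the adaptors had 5 lower and 4 higher, the basement membrane genes 10 and 0, the laminin receptors 4 and 1 and the other ligands 7 and 2. Normexp gave 1 adaptor higher, 4 basement membrane genes lower, 0 receptors higher, and 3 ligands lower with 0 higher. The authors' values gave 2 adaptors lower and 1 higher, 4 basement membrane genes lower, 2 receptors lower and 0 higher, and 3 ligands lower and 0 higher. The mean spot intensity gave 1 adaptor higher, 5 basement membrane genes lower, 0 receptors higher, and 3 ligands lower and 0 higher. Without the filter 1 basement membrane gene and 1 ligand were higher, and with all 7 arrays required 0 receptors and 1 ligand were. The mean over probes gave 2 adaptors lower, slide as a random block 1 ligand higher, the replicate block 6 basement membrane genes lower, and slide as a fixed effect 0 calls in every list. With 1 array left out the adaptors called lower numbered 3 to 6 and the ligands called higher 1 to 2.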
